A study of Mus musculus with 2 samples.

Results

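This account follows 10 transcription factor genes that are known for the naive and memory-precursor states of T cells: Lef1, Tcf7, Tox, Satb1, Bach2, Foxo1, Foxp1, Id3, Klf2 and Klf3. They were chosen by name, through every gene probe on the array that carries one of these symbols or an older synonym. The search found 22 probes for the 10 genes, of 41174 gene probes for 27597 gene names in all. The deficient samples were CD8+ T cells of Bcl11bF/F/dLck-iCre mice, in which floxed Bcl11b alleles are removed by a Cre recombinase under the distal Lck promoter, a promoter of T cells. The samples they were set against were CD8+ T cells of wild-type mice. All mice carried an infection with Listeria monocytogenes-OVA, a bacterium that makes ovalbumin, and cells were taken at day 6 by negative selection, with a labelled purity of over 90%. Each of 2 arrays held deficient RNA in the red dye (Cy5) and wild-type RNA in the green dye (Cy3), and each array is labelled as 1 biological replicate. Because both arrays have the same dye orientation, an effect of the dye on a probe and an effect of the genotype cannot be told apart. The labels do not give the age of the mice, whether animals were pooled, or which part of Bcl11b is floxed.

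Lef1 and Tcf7 encode the HMG-box proteins LEF-1 and TCF-1, which bind the same DNA motif and, with beta-catenin or with Groucho-type corepressors, set the expression of genes of naive and memory T cells. Activated CD8 T cells that become effectors usually lose these factors, while memory precursors keep or regain them. Tox is an HMG-box protein of T-cell development and of persistently stimulated T cells, Satb1 organizes chromatin loops, and Bach2 is a repressor that restrains effector genes. Foxo1 and Foxp1 are forkhead factors of T-cell quiescence and homing, Id3 blocks E proteins and marks memory precursors, and Klf2 and Klf3 are zinc-finger factors that govern migration and quiescence. Bcl11b, the gene deleted here, is a zinc-finger factor needed for the T-cell programme.

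Lef1 and Satb1 were called lower in deficient cells, and none of the 10 genes was called higher. For Satb1 the call held at the brighter of its 2 probes and not at the dimmer, which was also measured in both channels. Tox was called lower too, at a probe whose deficient signal was too dim on either array to count as measured, so its ratio is not a measured size. Tcf7 was called lower at the dimmer of its 2 probes and not at the brighter. With the brightest probe standing for each gene, limma called 3 of 10 genes lower at an adjusted p under 0.05, against 5.96% of the 9941 genes tested, and 0 higher, against 3.65% of all genes. A total of 4 of the 10 had an unadjusted p under 0.05, all lower. Over all 9941 genes, 1422 were lower and 754 higher at that level. The log2 ratio of deficient over wild type was below 0 on both arrays for 7 of 10 genes, against 41.5% of all genes, and the other 3 (Tcf7, Foxo1 and Klf2) had opposite signs on the arrays. The median over the 10 genes was -0.63 (-0.57 on replicate 1 and -0.92 on replicate 2), beside -0.12 over all genes tested (-0.22 and -0.01). Of the 22 probes, 18 passed the filter, which asks for 1 channel well above background on both arrays. In a fit over all probes, 7 of these 18 were called lower, in 6 genes, against 4.84% of 12632 probes, and 0 were called higher, against 2.72%. Dim deficient signals on 1 or both arrays underlie 5 of the 18 probes and 4 of the 7 calls. The filter admitted these 5 by their wild-type signal alone, which favours ratios below 0. With both channels required to be well above background, 3 probes of the group were called. At the gene level that filter called 3 of 9 genes of the group, all lower. Over all 5836 genes tested it gave 220 lower and 560 higher. At an unadjusted p under 0.05, 9 of the 18 were lower, and no such count was made over all probes. The ratio was below 0 on both arrays for 15 of the 18, against 43.1% of all probes. These shares are descriptions and not tests of the group, and the probes of 1 gene share their target.

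**Figure D1:**
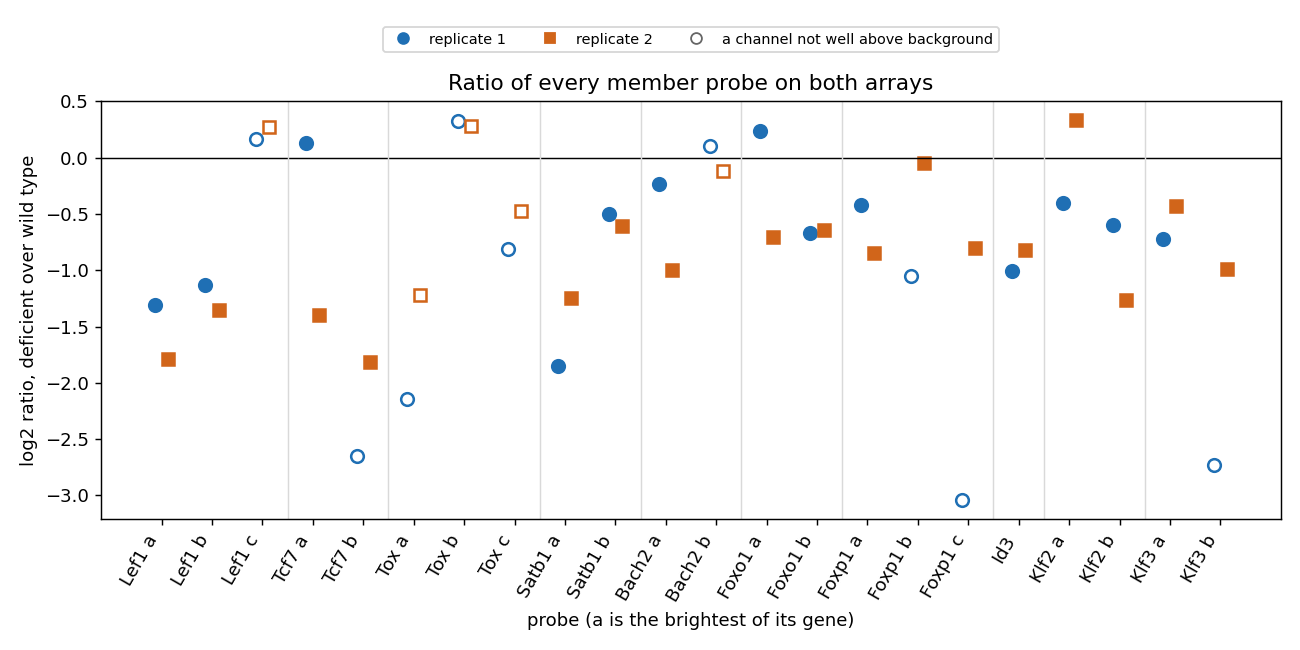
Log2 ratio of deficient over wild type for each of the 22 probes of the 10 genes (x axis, a is the brightest probe of its gene), with replicate 1 as circles and replicate 2 as squares. Open symbols mark a channel not well above background. All 7 called probes lie below 0 on both arrays, and the probes Tcf7 a, Foxo1 a and Klf2 a have opposite signs on the arrays.

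The 2 arrays had 45018 spots each, and deficient RNA was well above background at 26.0% and 31.1% of gene spots, against 32.4% and 28.9% for wild-type RNA. Negative control spots had a median intensity of 968 and 707 in the deficient channel, against 326.5 and 406 in the wild-type channel, while the median local background was 47 in the deficient channel and 37 in the wild-type channel on both arrays. A dim spot can therefore have a higher raw intensity in the deficient channel and a ratio below 0 after loess normalization. Intensities below are spot means before background correction, in scanner units, and ratios are after it. The intensities are not normalized between dyes or arrays. Their order or overlap between the groups is thus a description and does not show a difference in expression. The fit over genes gave 1 standard error, 0.42, to all of them, so a call there means an absolute mean log2 ratio of at least 1.18. The standard error ran from 0.39 to 0.70 in the fit over probes. Bcl11b itself had ratios of -0.69 and -2.95 at its brighter probe (mean -1.82 ± 1.60, SD, n = 2; limma adjusted p = 6.6e-04) and was lower in deficient cells, with a wide gap between the arrays. Its call passed in 8 of 13 alternative settings and failed in others, among them the Feature Extraction ratios, at an adjusted p of 0.139, and uncorrected signals, at 0.066 (limma). A second Bcl11b probe had ratios of -1.09 and -2.03, and its deficient signal was dim on both arrays, with a wild-type signal at least 2.81-fold higher. The labels do not say whether these probes lie in the deleted part.

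Markers of CD8 T cells were lower in deficient samples, and markers of several other cell types were higher. Of 14 CD8 T-cell markers tested, 6 were called lower and 0 higher (median -1.14, with -1.02 on replicate 1 and -1.44 on replicate 2). The genes of the labelled type, Cd8a and Cd8b1, were well above background in both channels on both arrays, with mean ratios of -0.91 and -1.10 that did not pass. All 14 macrophage markers tested were called higher (median 2.78, with 2.65 and 3.11), as were 3 of 7 for B cells, 3 of 4 for NK cells, 3 of 8 for neutrophils, 4 of 5 for erythroid cells and 4 of 5 for dendritic cells. Of 16 macrophage markers on the array, 14 and 16 were well above background in deficient samples, against 15 and 14 in wild-type samples, so these genes were measured in both groups. The summed intensity of the macrophage markers was 157097 and 405460 in deficient samples, against 43928 and 36445 in wild-type samples. That of the CD8 T-cell markers was 82860 and 132919 in deficient samples, against 235093 and 274901 in wild-type samples. In such bulk RNA, fewer T cells in the sample and less RNA of a gene per T cell cannot be told apart. Set beside the CD8 T-cell markers of the same array, 2 of the 18 probes lay below the markers' median on both arrays, namely the brightest Lef1 probe and the dimmer Tcf7 probe. Another 10 lay above it on both arrays. The brightest Lef1 probe lay under that median by a log2 difference of -0.29 and -0.35, and the second Lef1 probe lay above it on replicate 2. The deficient signal of the dimmer Tcf7 probe was not well above background on replicate 1. The markers' own mean ratios ran from -2.56 to -0.09. The part of the cell mixture in the ratios of the 10 genes was not tested.

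**Figure D2:**
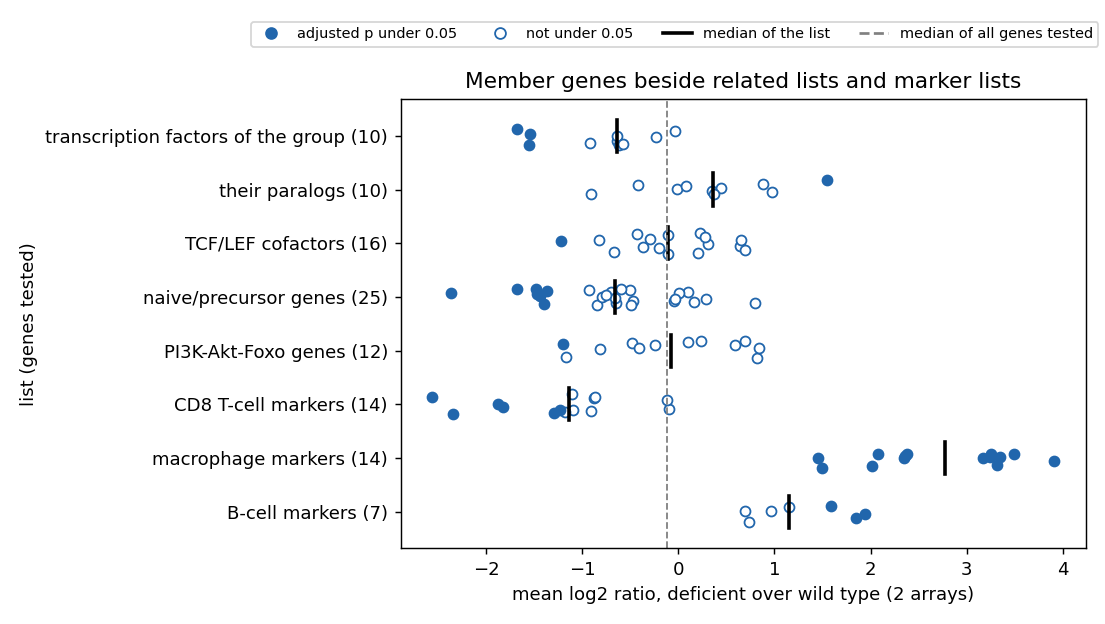
Mean log2 ratio of deficient over wild type for each gene tested (points) in the group of 10, in lists of related genes and in marker lists of cell types. The list labelled TCF/LEF cofactors also holds genes of the beta-catenin pathway. Filled points passed at an adjusted p under 0.05, black bars are list medians and the dashed line is the median of all genes tested. The group of 10 has its median at -0.63, between the CD8 T-cell markers at -1.14 and all genes at -0.12, and the macrophage markers at 2.78 lie to the right.

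Promoters of Lef1, Satb1 and Klf3 are shown because each of these genes had a probe called lower and because they span the range of sequence found in the group, from no searched motif to many. They are the 250 bases before the outermost listed start of the gene, from RefSeq (build GRCm38.p6, which differs from the build of the probes), read on the strand of the gene and 5′ to 3′. Capitals mark the GC box, GGGCGG on either strand, which is bound by zinc-finger factors of the SP and KLF family. The windows are chr3:131110047-131110296 on the plus strand for Lef1, chr17:51833291-51833540 on the minus strand for Satb1 and chr5:64803271-64803520 on the plus strand for Klf3.
Lef1: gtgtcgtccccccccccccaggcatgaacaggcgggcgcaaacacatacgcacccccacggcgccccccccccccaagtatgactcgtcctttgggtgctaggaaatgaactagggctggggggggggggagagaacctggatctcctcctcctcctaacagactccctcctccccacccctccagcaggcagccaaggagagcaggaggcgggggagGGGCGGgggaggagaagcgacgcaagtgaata
Satb1: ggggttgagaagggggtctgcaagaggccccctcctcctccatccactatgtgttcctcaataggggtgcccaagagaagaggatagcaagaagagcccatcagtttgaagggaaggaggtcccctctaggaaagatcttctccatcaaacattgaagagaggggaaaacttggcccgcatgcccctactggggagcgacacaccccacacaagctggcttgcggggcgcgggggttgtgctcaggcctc
Klf3: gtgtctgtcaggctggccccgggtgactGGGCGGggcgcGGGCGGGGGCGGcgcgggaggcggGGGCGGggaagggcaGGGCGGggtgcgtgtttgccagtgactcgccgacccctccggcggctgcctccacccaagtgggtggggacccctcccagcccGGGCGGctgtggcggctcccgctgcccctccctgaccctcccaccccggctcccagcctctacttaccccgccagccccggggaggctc

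The GC box occurred 1 time in the Lef1 window, 32 bases before the start, 0 times in the Satb1 window and 6 times in the Klf3 window. Lef1 has 4 listed windows, Satb1 5 and Klf3 1, and only the outermost window of each gene was searched. It was present in 7 of the 9 genes of the group with an entry, against 33.0% of all 27025 promoters. The windows of the group were also richer in G and C, with a median of 62.8% against 52.0% over all promoters. The TCF/LEF motif CTTTGA occurred in 1 of 9 windows (Bach2) against 14.1% of all promoters, and the ETS motif CCGGAA in 1 of 9 (Bach2) against 12.3%. The E box CAGCTG occurred in 1 of 9 (Tcf7) against 12.7%, the RUNX motif TGTGGT in 0 of 9 against 14.2%, and the FOXO motif GTAAACA in 0 of 9 against 3.06%. In the Tcf7 window, the E box and the GC boxes follow an ATG with no in-frame stop codon before the window's end. These matches may therefore lie in coding sequence and not in a promoter. Tcf7 is among the 7 genes counted with a GC box and enters the median of G and C. Both strands were searched, and matches overlapped in the Id3 window alone, where 2 GC boxes shared 2 bases. A match is a description of the letters and not a bound site.

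Lef1 was lower in deficient cells at both of its probes with signal. The brightest probe (AK083328, chr3:131213273-131213332, plus strand, build NCBI36) had an intensity of 2376 and 4178 in deficient cells, against 7084 and 9603 in wild-type cells, in the order of replicates 1 and 2. Both deficient values were below both wild-type values. The log2 ratio was -1.31 on replicate 1 and -1.79 on replicate 2, a mean of -1.55 ± 0.34 (SD, n = 2; limma adjusted p = 0.0054 over genes). A second probe (NM_010703), whose listed span of 18162 bases (chr3:131194088-131212249) exceeds its own length, gave 1722 and 2961 in deficient cells, against 3397 and 4799 in wild-type cells. Its ratios of -1.13 and -1.35 averaged -1.24 ± 0.15 (SD, n = 2; limma adjusted p = 0.048 over probes). That call stood close to the threshold and passed in 4 of 12 other settings (adjusted p from 0.0079 to 0.277). The third probe (AK042137, chr3:131106293-131106352), 87795 bases or more upstream of the others, was not well above background in either channel on either array and was not tested. Over the 12 alternative settings that use it alone, the brightest probe ran from -2.41 to -1.43 and passed in 8 (adjusted p from 5.7e-05 to 0.268).

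**Figure D3:**
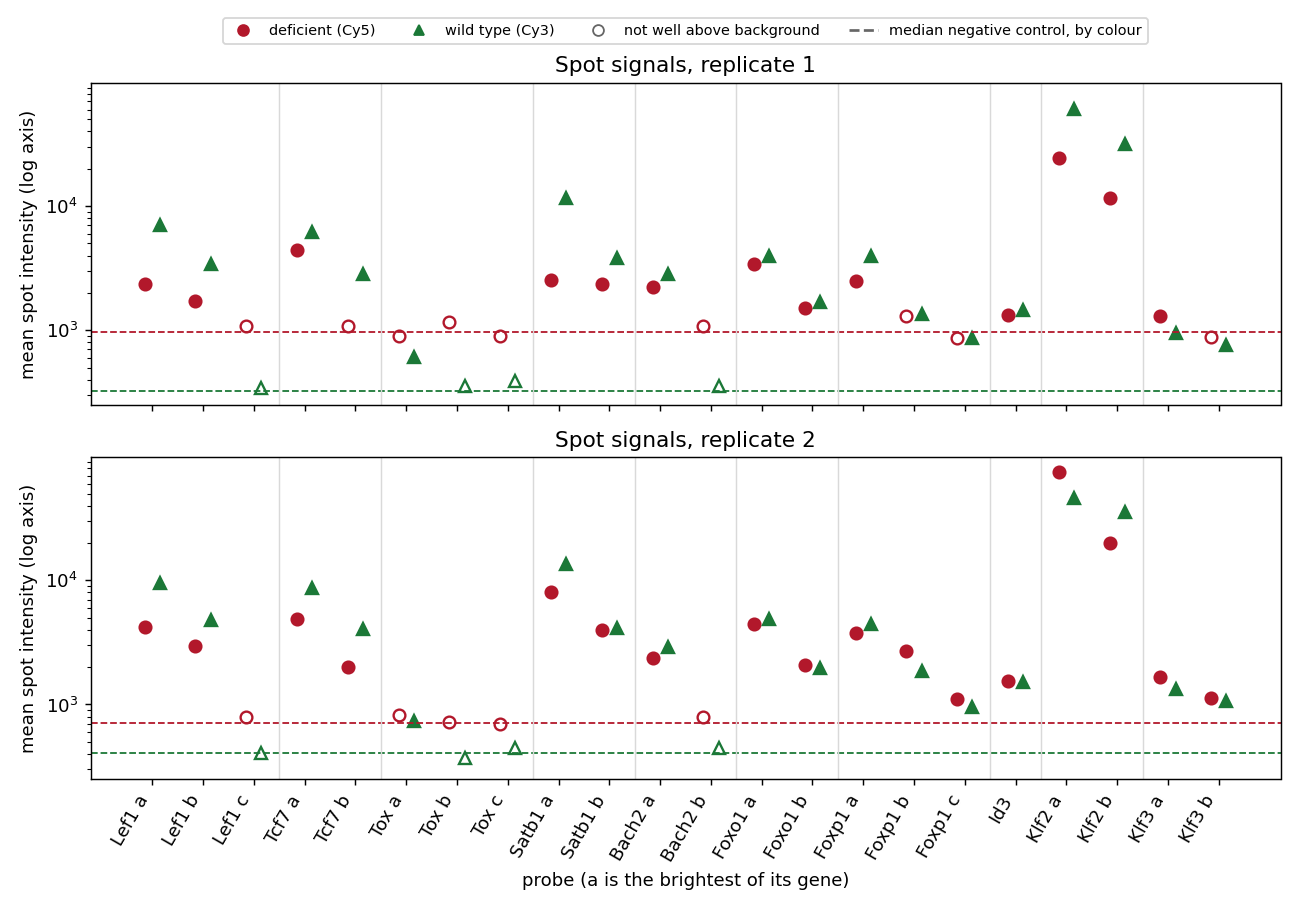
Mean spot intensity (log axis, scanner units) of the 22 probes in deficient RNA (red circles) and wild-type RNA (green triangles), for replicate 1 above and replicate 2 below. Open symbols were not well above background, and dashed lines are the median of the negative controls in the same colour. Both bright Lef1 probes have the deficient signal below the wild-type signal on both arrays, and the brightest Tox probe has its deficient signal near the line.

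Tcf7 had 2 probes, which lie 717 bases apart on the minus strand of chromosome 11, and was called at 1 of them. The brighter probe (NM_009331, chr11:52096035-52096094), the one further along the gene in the direction of transcription, had 4462 and 4884 in deficient cells, against 6175 and 8717 in wild-type cells. Both deficient values were below both wild-type values. Its ratio was 0.13 on replicate 1 and -1.40 on replicate 2, a mean of -0.63 ± 1.08 (SD, n = 2; limma adjusted p = 0.384 over genes), so the spread between arrays was larger than the mean. The dimmer probe (NM_009331, chr11:52096752-52096811) had 1084 and 2005 in deficient cells, against 2862 and 4097 in wild-type cells. Both deficient values were again below both wild-type values, and the deficient value of replicate 1 was not well above background. The ratios of -2.65 and -1.81 averaged -2.23 ± 0.59 (SD, n = 2; limma adjusted p = 6.1e-04 over probes). On replicate 2, where both probes were measured in both channels, their log2 ratios differed by 0.41. On replicate 1 the size of the difference is not measured, since the ratio of the dimmer probe rests on a dim deficient signal. With the mean of both probes in place of the brighter one, Tcf7 was called lower (mean ratio -1.43, limma adjusted p = 0.010). That mean takes in the replicate 1 ratio of the dimmer probe, so its size is not measured either.

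Tox was called lower from 1 of its 3 probes, and that probe was dim. The brightest (NM_145711, chr4:6615142-6615201, minus strand) had 895 and 819 in deficient cells, against 607 and 738 in wild-type cells. The deficient values were not well above background on either array, as the negative controls of that channel had medians of 968 and 707, while both wild-type values were. The ratios were -2.14 and -1.22, with a mean of -1.68 ± 0.65 (SD, n = 2; limma adjusted p = 0.0021 over genes). The deficient signal is therefore only an upper bound here, and the wild-type signal was at least 1.65-fold higher. For this bound, the mean normalized wild-type signal was divided by the deficient one, raised on each array to the dimmest signal that still counted as well above background where it lay under that. Such bounds are open to dye bias. The other probes (AK051947 and a second for NM_145711, 307 bases away) were not well above background in either channel and were not tested. Tox was -0.85 without background correction (limma adjusted p = 0.057). It passed in 7 of 11 alternative settings, not counting the mean of a gene's probes, which here is the same probe.

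Satb1 was lower at the probe for its reference transcript and not called at a probe 67327 bases away. The first (NM_009122, chr17:51204741-51204800, minus strand) had 2525 and 8095 in deficient cells, against 11630 and 13599 in wild-type cells. Both deficient values were below both wild-type values, although the 2 deficient values differed from each other by more than the wild-type ones did. The ratios of -1.85 and -1.25 averaged -1.55 ± 0.43 (SD, n = 2; limma adjusted p = 0.0055 over genes). The second probe (AK040502, chr17:51272068-51272127) had 2345 and 4006 in deficient cells, against 3812 and 4103 in wild-type cells. Its ratios were -0.50 and -0.61, with a mean of -0.56 ± 0.08 (SD, n = 2; limma adjusted p = 0.418 over probes). With the mean of both probes Satb1 had a ratio of -1.05 and was not called (limma adjusted p = 0.087). Over the 12 alternative settings that use it alone, the first probe ran from -2.45 to -1.43 and passed in 8.

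Among the forkhead factors, no gene was called from its brightest probe. Foxo1, a factor kept out of the nucleus by Akt signalling, had 3416 and 4441 in deficient cells at its brightest probe (NM_019739, chr3:52434190-52434249), against 3968 and 4888 in wild-type cells. Its ratios of 0.24 and -0.70 gave a mean of -0.23 ± 0.66 (SD, n = 2; limma adjusted p = 0.774 over genes). The intensities of the groups overlapped at this probe. A second probe 3106 bases away (chr3:52437296-52437355) gave ratios of -0.67 and -0.64 that were not called either (limma adjusted p = 0.330 over probes). Foxp1, a forkhead repressor that helps to keep naive T cells quiescent, had 2492 and 3737 in deficient cells at its brightest probe (AK033622, chr6:98892636-98892695), against 3970 and 4446 in wild-type cells. Its ratios were -0.42 and -0.85, with a mean of -0.63 ± 0.30 (SD, n = 2; limma adjusted p = 0.383 over genes). The probe for NM_053202 gave -1.05 and -0.05, and was not called. The remaining Foxp1 probe (AK031837, chr6:98918265-98918324) was called lower, with 860 and 1118 in deficient cells, against 858 and 954 in wild-type cells. Its ratios of -3.04 and -0.80 averaged -1.92 ± 1.59 (SD, n = 2; limma adjusted p = 0.0067 over probes), and its deficient value on replicate 1 was below the median of the negative controls. It passed in 5 of 11 alternative settings, and its ratio was -0.96 without background correction.

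Of the Krüppel-like factors, Klf2 was not called at either probe and Klf3 was called at the dimmer of its 2. Klf2, which drives the expression of homing receptors, had 24233 and 74743 in deficient cells at its brightest probe (NM_008452, chr8:75248851-75248910), against 61211 and 45794 in wild-type cells. The deficient value was lower on replicate 1 and higher on replicate 2, the ratios were -0.40 and 0.33, and their mean was -0.04 ± 0.52 (SD, n = 2; limma adjusted p = 0.971 over genes). Its second probe, 1376 bases downstream (chr8:75250227-75250286), had 11634 and 19925 in deficient cells, against 31525 and 35686 in wild-type cells. Both deficient intensities were below both wild-type intensities there, and the normalized ratios of -0.60 and -1.27 did not pass (mean -0.93 ± 0.47, SD, n = 2; limma adjusted p = 0.154 over probes). Klf3, a related repressor, had 1307 and 1671 in deficient cells at its brightest probe (NM_008453, chr5:65101464-65102044), against 947 and 1327 in wild-type cells. Its ratios of -0.72 and -0.43 were not called (limma adjusted p = 0.442 over genes), while the mean of both Klf3 probes was called lower (-1.21, limma adjusted p = 0.038). That mean takes in the replicate 1 ratio of the dimmer probe, which rests on a dim deficient signal. The other Klf3 probe (chr5:65108439-65108498), with 875 and 1118 in deficient cells, against 764 and 1067 in wild-type cells, was called lower. Its ratios were -2.73 and -0.99 (mean -1.86 ± 1.23, SD, n = 2; limma adjusted p = 0.0062 over probes), its deficient value on replicate 1 was not well above background, and it passed in 5 of 11 alternative settings. The Klf3 promoter with its 6 GC boxes thus belongs to a gene whose call depended on the probe.

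Bach2 and Id3 were not called. Bach2 had 2223 and 2382 in deficient cells (NM_007521, chr4:32909704-32909763), against 2842 and 2929 in wild-type cells. Its ratios were -0.24 and -0.998, with a mean of -0.62 ± 0.54 (SD, n = 2; limma adjusted p = 0.398 over genes), and a second probe (AK051132) was not well above background in either channel. Both deficient intensities of Bach2 were below both wild-type intensities, before any normalization of the dyes. Id3, with 1 probe (NM_008321, chr4:135416236-135416410), had 1332 and 1539 in deficient cells, against 1451 and 1523 in wild-type cells. The intensities of the groups overlapped, and the ratios after normalization were -1.01 and -0.82 (mean -0.91 ± 0.13, SD, n = 2; limma adjusted p = 0.163 over genes). The Id3 arrays lay close together, and the value passed in 1 of 13 alternative settings, the one that tests only probes well above background in both channels (limma adjusted p = 0.029).

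**Figure D4:**
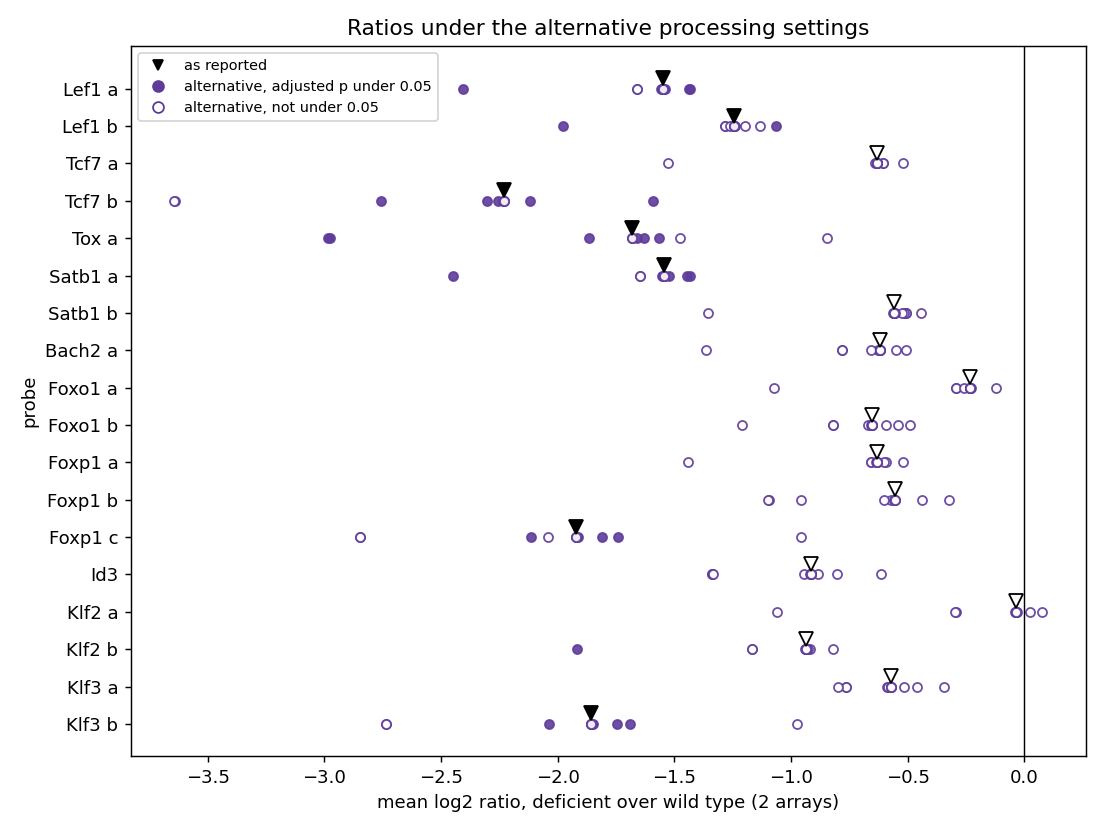
Mean log2 ratio of deficient over wild type of the 18 probes tested under each processing setting, with the value as reported as a triangle and each of up to 12 alternatives that use the probe alone as a circle. Filled symbols had an adjusted p under 0.05. All values lie below 0 except 2 of Klf2 a, and Lef1 a stays between -2.41 and -1.43.

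Of 31 paralogs of the 10 genes, 30 were on the array and 10 passed the filter. Among these limma called 1 higher and 0 lower (3 higher and 1 lower at an unadjusted p under 0.05). Klf4, a factor of quiescence in lymphocytes that myeloid cells also express, was called higher, with 2404 and 2829 in deficient cells, against 882 and 732 in wild-type cells. Its ratio was 1.55 ± 0.12 (SD, n = 2; limma adjusted p = 0.0055). Tcf7l2, a TCF family member, had a ratio of 0.98 ± 0.37 (SD, n = 2; limma adjusted p = 0.128) and Id2, the Id protein of effector cells, had 0.88 ± 0.46 (SD, n = 2; limma adjusted p = 0.185), and neither passed. The wild-type signal of Tcf7l2 was dim on both arrays, and the deficient signal was at least 1.77-fold higher. Foxp4, also dim in wild-type cells (at least 1.36-fold higher in deficient cells), Klf6 (0.37), Bach1 (0.35), Tox4 (-0.01), Klf10 (-0.42) and Klf13 (-0.91) were not called.

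Genes that work with these factors were mostly not called. Of 25 cofactors of TCF and LEF proteins and genes of the beta-catenin pathway, 16 were tested and 1 was lower. This was Tle5, a short Groucho-family protein, with ratios of -1.28 and -1.15 (mean -1.22 ± 0.09, SD, n = 2; limma adjusted p = 0.041). The median of that list was -0.11, close to that of all genes. Of 14 genes listed for the PI3K and Akt pathway, which controls Foxo1, and for Foxo factors, 12 were tested and 1 was lower. This was Rictor, a component of mTOR complex 2, at a mean ratio of -1.20 (limma adjusted p = 0.046). Its deficient signal was too dim on either array to count as measured, which leaves a wild-type signal at least 1.28-fold higher. Of the 3 E proteins that Id3 binds, Tcf3 was called lower, with ratios of -2.30 on replicate 1, where the deficient signal was dim, and -0.47 on replicate 2 (mean -1.38 ± 1.29, SD, n = 2; limma adjusted p = 0.016). Tcf12 (-0.38) and Tcf4 were not called, and Tcf4 was dim in wild-type cells on both arrays, with a deficient signal at least 1.45-fold higher. Of 10 regulators of effector cells, 7 were tested and limma called 0 (2 higher at an unadjusted p under 0.05). Id2, given above, and Nfil3 had the smallest adjusted p, at 0.185 and 0.189 in limma. The wild-type signal of Nfil3 was dim on both arrays, and the deficient signal was at least 1.81-fold higher.

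Several surface and signalling genes of naive and precursor cells were lower in deficient cells. Of 28 such genes, 25 were tested, 7 were called lower and 0 higher, and 19 had ratios below 0 on both arrays. Their median was -0.66 (-0.77 on replicate 1 and -0.47 on replicate 2), above the median of the CD8 T-cell markers on both arrays. The diacylglycerol kinase Dgka, with 2581 and 5632 in deficient cells, against 11303 and 11759 in wild-type cells, had a ratio of -1.68 ± 0.11 (SD, n = 2; limma adjusted p = 0.0021). The cytokine signal inhibitor Socs3, with 2295 and 4845 in deficient cells, against 7581 and 8647 in wild-type cells, had -1.44 ± 0.05 (SD, n = 2; limma adjusted p = 0.012). Both had little spread between arrays. Dapl1 (-1.31 and -3.42), Itga6 (-1.84 and -1.11), Slamf6 (-2.50 and -0.44) and Tnfsf8 (-2.63 and -0.17) were called lower too, with wider spread. The deficient channel of the last 3 was not well above background on replicate 1. How far the cell mixture enters these values was not tested.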

How the data were processed

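Members and lists were chosen with earlier results of these data known. Per the file headers, the authors' scanner files hold spot intensity values (mean signal and local background median) made with Agilent Feature Extraction 9.5.3.1 (also named in the submitters' processing notes), with probe coordinates on build NCBI36 (mm8). RNA was linearly amplified and dyes were attached chemically, per the labels' protocols. The program's log10 ratio of red over green, with linear and LOWESS dye normalization per the file headers, was used as an alternative, as was the deposited value table. That table holds the same log10 ratio (largest difference 0.0050 and 0.0049; both column medians 0), so its scale and direction, deficient over wild type, are known.

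Background was corrected with normexp (offset 50), ratios were normalized by loess within arrays with control spots at weight 0, and outlier spots (255 and 195) were left out. None of the 22 spots of the members was marked as an outlier or saturated. A gene was represented by its probe of highest mean intensity. Two-sided tests of the log2 ratio against 0 used limma 3.58.1 under R 4.3.3 (lmFit, eBayes), with Benjamini-Hochberg adjustment over all genes or all probes and a threshold of 0.05, and statmod 1.5.0 served the separate-channel alternative. The test was tried on simulated data, and no outcome of that trial is given or used here. The 2 arrays limit the precision, and because the fit shares 1 spread among all genes, a gene's p-value follows from its mean ratio and not from its own spread between arrays. Both lie on 1 slide, so no batch could be tested. Of 41174 probes, 24375 were named by accession, 6301 by symbol and 2426 by synonym in RefSeq GRCm38.p6, and 8072 kept the array's name. Exons were not assigned. The text names every probe of the 10 genes, Bcl11b, Cd8a and Cd8b1 as the labelled type, all measured non-Klf paralogs, the 4 Klf paralogs with the smallest adjusted p, and of each other pathway list up to 6 called genes or else the 2 with the smallest adjusted p. Cd8a and Cd8b1 were added after their values were seen. Alternatives were 13 settings and single arrays.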

Additional observations from a re-analysis of the deposited data

How the results depend on the processing

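Over 13 settings (12 for Tox, which the filter on both channels removes), the 10 genes' mean ratios stayed below 0, apart from Klf2, which was 0.023 without background correction and 0.076 when arrays were centred on the median of their genes. The Feature Extraction ratios and the deposited value table called 1 gene of the group each and 0 probes (8 at an unadjusted p under 0.05 each), with 65 lower and 50 higher genes in all each. The 1 gene was Tox (limma adjusted p = 0.048 in each), whose deficient signal was dim on both arrays. Lef1 and Satb1 were called in neither (limma adjusted p = 0.140 and 0.145 in each). Without a filter on dim probes, limma called 0 genes (6 unadjusted), 0 probes (13), 0 lower genes in all (2743) and 0 higher (2373), where 27595 genes were tested. Separate channels in limma called 0 genes of the group (4), 0 probes (10), 0 lower genes (1244) and 0 higher (739). Without background correction 4 probes were called and 186 genes were lower (289 higher). The fitted background surface gave 1 probe, 165 lower and 231 higher genes. Median centring in place of loess gave 350 lower and 69 higher genes and moved the median of all genes to -0.41 and that of the group to -1.40. A filter on both channels gave 3 probes and 3 of 9 genes of the group, with 220 lower and 560 higher genes among 5836 tested. Centring on the genes' median gave 561 lower and 536 higher genes, against 592 and 363 as reported, and put the group at -0.52. Apart from the smaller or larger sets tested, the causes were not tested. Single arrays put Tcf7 at 0.13 and -1.40, Foxo1 at 0.24 and -0.70 and Klf2 at -0.40 and 0.33, and kept the sign of every other probe tested. A count of calls from 1 array has no residual degrees of freedom and was not made. The test of each array's ratio against 0 is itself paired, since both RNAs share an array. Dim deficient signals, not well above background on 1 or both arrays, underlie 5 of the 18 probes and 4 of the 7 calls.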
